A study of Brassica napus with 12 samples.

Results

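Isolated H3K4me3 islands are stretches of chromatin marked by H3K4me3 that lie far from any other H3K4me3 region. They were found in HZ62, a hybrid of *Brassica napus* (oilseed rape), by merging the peaks of 6 H3K4me3 peak lists wherever these overlapped by 1 bp and keeping the regions on the numbered sequences 1 to 19. An island is a merged region that had a peak in both libraries of at least 1 tissue and lay more than 40 kb from the next merged H3K4me3 region on each side. Of 51877 merged regions, 49182 had a peak in both libraries of at least 1 tissue and are called reproducible here. Of these, 776 were islands and 48406 were other regions.

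The peak lists came from chromatin immunoprecipitation and sequencing (ChIP-seq) with antibodies against H3K4me3 and H3K27me3, in seedling, flower bud (also bud below) and silique (seed pod), with 2 libraries per mark and tissue and 12 in all. All plants were HZ62 of genotype WT, grown with 16 h of light and 8 h of dark at 22 and 18 °C. Seedlings were 2 weeks old, buds were shorter than 2 mm, and siliques were 3 to 5 cm long. The parents of HZ62, named in the design text, are not analysed here. The titles call the seedling material leaf, where the tissue field says seedling. Whether the libraries of a pair came from different plants is not stated, so p-values measure only the spread between libraries, which may be technical.

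H3K4me3, trimethylation of lysine 4 on histone H3, sits at the starts of transcribed plant genes, just downstream of where RNA polymerase begins. H3K27me3 is laid down by Polycomb proteins and covers genes held silent in a tissue, many of them developmental regulators. In plant chromosomes the stretches between genes are widest near the centromeres, where transposons are dense and both marks are scarce, whereas the arms are gene-rich.

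Depth ran from 8609548 to 14339594 fragments for the H3K4me3 libraries and from 2654588 to 11513204 for the H3K27me3 libraries. Of the H3K27me3 libraries, those of flower bud were the deepest (11513204 and 10929797 fragments), followed by silique replicate 1 (7441109), the seedling libraries (3647059 and 3479885) and silique replicate 2 (2654588). Seedling libraries carry lower library numbers than all the others, so tissue and library series cannot be told apart there. The absence of a peak means that none was called at that depth. Fold enrichment is the authors' own value per peak, the height of the peak over its local control, and is compared only within a list. Positions are 1-based on sequences numbered as in the peak lists, on a build not given in the sources used here. With no annotation of that build, islands are named by position and no gene is assigned to them.

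The islands stood at the far end of a continuous range of spacings. The smaller of an island's gaps to its neighbours had a median of 54.2 kb and ran from 40030 to 772029 bp, against a median of 3.56 kb in other regions. Among the islands, 299 had a smaller gap over 60 kb, 82 over 100 kb and 20 over 200 kb. The larger gap had a median of 88.4 kb and reached 2084 kb, and it exceeded 1 Mb at 16 islands. The histogram of gaps shows no break at 40 kb, so the limit parts a tail and not a separate class. The islands were chosen by these gaps and by the H3K4me3 peaks of the 6 libraries, so both are given as a description, with no test.

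**Figure D1:**
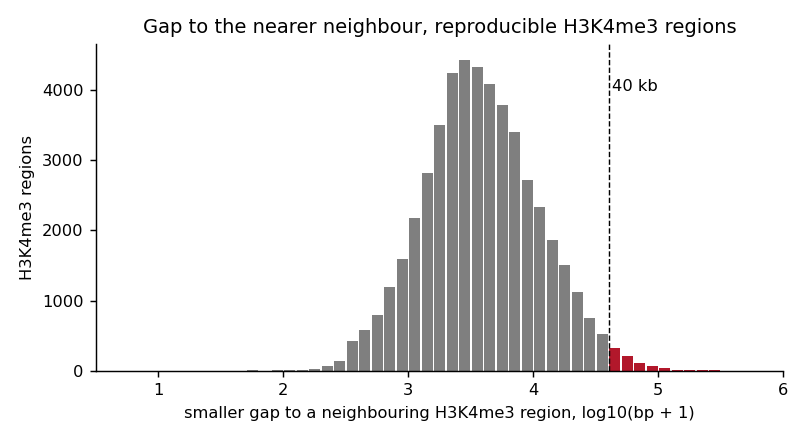
Histogram of the 49182 reproducible H3K4me3 regions (less 35 at sequence ends, which have 1 neighbour) by the smaller gap to a neighbouring H3K4me3 region, as log10(bp + 1). Red bars are the 776 islands beyond the dashed line at 40 kb, and grey bars are other regions, whose median gap was 3.56 kb.

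Both sides of the limit held strong and weak regions. The island nearest the limit, on sequence 13 at 65809091 to 65811020, had a smaller gap of 40030 bp and folds of 5.86 and 7.66 in seedling, no peak in bud, and 12.2 and 15.6 in silique. The next, on sequence 16 at 18080488 to 18081484, had a gap of 40049 bp and folds between 22.4 and 29.7 in all 6 libraries. Just outside, the region on sequence 3 at 33208362 to 33209238 had a gap of 39977 bp and folds between 16.7 and 21.4 in all 6 libraries. The region on sequence 14 at 51207486 to 51207843 had a gap of 39947 bp and peaks in seedling alone, with folds of 7.92 and 6.61.

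Islands were unevenly spread over the numbered sequences. Sequences 11 to 19 held 643 islands (82.9%), and sequences 1 to 10 held 133 (17.1%), while 53.03% of other regions lay on sequences 11 to 19. As a share of reproducible regions, islands were 2.44% on sequences 11 to 19 and 0.582% on sequences 1 to 10. The 9 values of sequences 11 to 19 ran from 1.80% (sequence 13) to 3.75% (sequence 12). All of them lay above the 10 values of sequences 1 to 10, which ran from 0.427% (sequence 9) to 0.855% (sequence 2). Per megabase, sequences 11 to 19 had 1.17 islands and 48.1 reproducible regions, whereas sequences 1 to 10 had 0.428 islands and 73.6 reproducible regions. The islands were thus most frequent where H3K4me3 regions were least dense, a relation that the rule itself builds in.

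By order and length, sequences 1 to 10 match chromosomes A1 to A10 and sequences 11 to 19 match C1 to C9 of the Da-Ae assembly of *B. napus*. Over the 19 sequences, the extents covered by peaks and by that assembly's genes had a Pearson r of 0.994 and a Spearman rho of 0.991. The match is by extent alone, and the numbers of the sequences are used below.

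Islands were also scarce near the sequence ends. With each sequence parted into 10 bins of equal length, the first and the last bin held 79 islands (10.2%), against 28.4% of other regions. The 4 bins in the middle, from the fourth to the seventh, held 420 islands (54.1%), against 29.9% of other regions. The highest share of islands fell in the fifth bin, as the plot of place along the sequences shows.

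**Figure D2:**
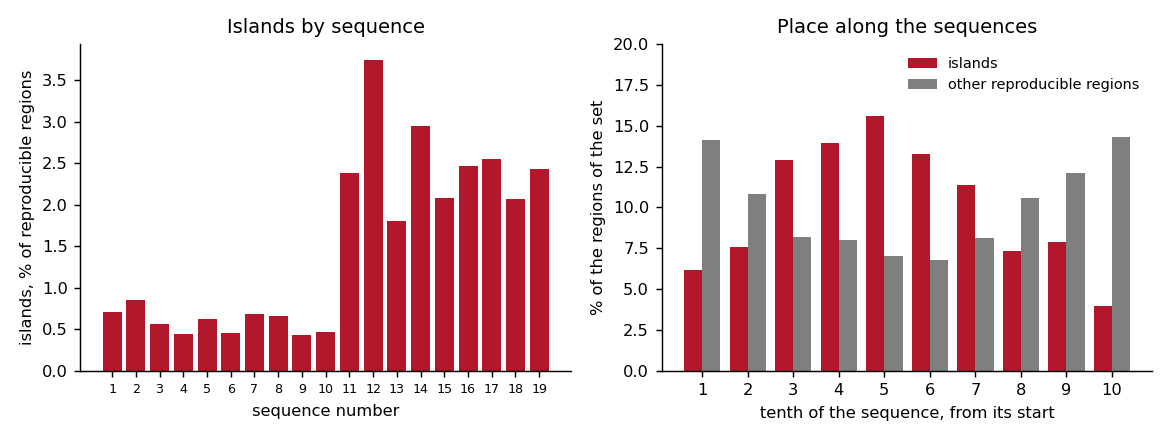
Left, islands as a percentage of the reproducible H3K4me3 regions of each numbered sequence, from 0.427% on sequence 9 to 3.75% on sequence 12. Right, the percentage of islands (red) and of other reproducible regions (grey) in each of 10 bins of equal length along the sequences, where islands peak in the middle and other regions at the ends.

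Many islands followed one another. For 325 islands (41.9%) the next H3K4me3 region on at least one side was itself an island, and these fell into 131 runs. The rule itself favours such runs, since a region next to an island already has a gap over 40 kb on that side. The runs held 2 islands in 89 cases, 3 in 28, 4 in 9, 5 in 3 and 6 in 2, and the other 451 islands had no island as a neighbour.

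A run of 6 islands on sequence 18 spanned 10970223 to 11685802 (716 kb). The member at 11612543 to 11614079 had the highest folds of the run in silique (38.2 and 42.8). Its folds were 22.6 and 29.6 in seedling, and 34.8 and 29.0 in bud. In seedling replicate 1 the member at 11279440 to 11280587 was higher, at 29.9. In flower bud replicate 2 the member at 10970223 to 10971644 was higher, at 30.9. Another member, at 11113375 to 11113716, had folds of 10.3 and 8.42 in seedling and 8.09 in 1 flower bud library, with no other peak. Strong islands seen in every library and weak ones seen in some thus lay in the same run.

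Another run of 6 lay on sequence 11 at 26952427 to 27525621 (573 kb). Of its members, 5 had peaks in all 6 libraries. The strongest of them in every library but 1, at 26952427 to 26953533, had folds of 35.2 and 40.5 in seedling, 42.7 and 37.6 in bud, and 36.8 and 42.4 in silique. The member at 27376936 to 27377678 was the stronger in 1 seedling library. Its folds were 38.4 and 36.0 in seedling, 32.9 and 27.8 in bud, and 7.69 and 12.2 in silique. The remaining member, at 27451859 to 27452289, had H3K4me3 in seedling alone, with folds of 9.25 and 9.31. That same island was overlapped by wide H3K27me3 peaks in flower bud, 5663 and 5861 bp long, with folds of 13.8 and 14.9. A peak of 5336 bp with a fold of 15.4 overlapped it in silique replicate 1, and one of 912 bp with a fold of 5.17 in seedling replicate 1. Of the runs of 5, the first in sequence order lay on sequence 17 at 4954145 to 5144220 (190 kb). All its members had peaks in all 6 libraries, as had 71.8% of all islands.

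In size, an island was an ordinary H3K4me3 region. The median width was 838 bp (274 to 3188 bp), against 883.5 bp in other regions. The 3 widest islands all had peaks in all 6 libraries, as had 71.8% of all islands. They lay on sequence 12 at 39669711 to 39672898 (3188 bp), on sequence 2 at 23916777 to 23919680 (2904 bp) and on sequence 11 at 5040423 to 5043217 (2795 bp). The first had folds from 30.2 to 45.4 and the second from 45.8 to 52.4. The last had 11.5 and 14.0 in seedling, 14.6 and 12.1 in bud and 23.2 and 25.03 in silique.

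Median fold at the islands, where a library had a peak, was slightly below that of other regions in each list. It was 13.7 in islands against 16.2 in other regions, and 14.4 against 16.6, in the seedling libraries. In flower bud it was 14.4 in islands against 16.7 in other regions, and 13.3 against 15.9. In silique it was 11.9 in islands against 14.7 in other regions, and 13.8 against 17.1. The ranges between the quartiles overlapped broadly, as the plot of quartiles shows. The islands were chosen by the H3K4me3 peaks themselves, so this is a description. The local control implied by pileup and fold was a little lower at islands as well, with medians of 2.96 to 6.92 fragments over the 6 libraries at islands and 3.22 to 7.32 at other regions. Its part in the folds was not tested.

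**Figure D3:**
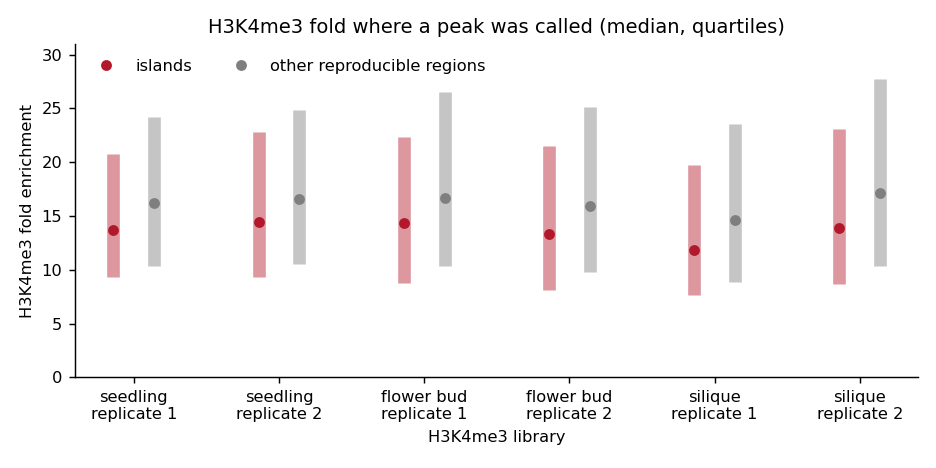
H3K4me3 fold enrichment, the authors' value per peak, in each H3K4me3 library at islands (red) and at other reproducible regions (grey). Points are medians and bars span the quartiles, over regions with a peak in that library. Island medians run from 11.9 to 14.4, below the median of other regions in each list.

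Some islands ranked among strongly enriched regions. The island on sequence 2 at 17768311 to 17770374 had the highest lowest fold, with 50.1 and 49.7 in seedling, 68.7 and 65.2 in bud, and 65.6 and 60.5 in silique. On sequence 19, the island at 23952113 to 23954399 had 48.2 and 50.1 in seedling, 65.6 and 62.0 in bud, and 66.6 and 57.7 in silique. On sequence 15, the island at 20500597 to 20501640 had folds of 70.7 and 74.6 in seedling, 77.3 and 73.1 in bud, and 46.8 and 57.4 in silique. The remaining islands of this kind, on sequence 19 at 37517688 to 37519146 and on sequence 13 at 32380719 to 32382995, had lowest folds of 46.1 and 45.4. None of these 5 overlapped an H3K27me3 peak in any library. Such an overlap was rare in general, at 74 of all 776 islands (9.54%) and 7.30% of other regions. It was at 11.3% of the regions with a smaller gap over 20 to 40 kb.

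The most isolated islands were a mixed group. The island on sequence 1 at 18643500 to 18645218 lay 1631786 bp from its left neighbour and 772029 bp from its right. Its folds were 7.21 and 11.5 in seedling, 12.9 and 13.8 in bud, and 9.41 and 7.84 in silique. On sequence 15, the island at 31842223 to 31842797 had a smaller gap of 748984 bp and was marked in flower bud alone, with folds of 8.74 and 8.97. On sequence 3, the island at 34747578 to 34749456 had a smaller gap of 529293 bp and folds from 23.4 to 27.6 in all 6 libraries. On sequence 7, the island at 4874279 to 4875067 (528625 bp) had folds of 12.2 and 12.3 in seedling and from 5.93 to 9.64 in the other 4 libraries. The island on sequence 16 at 12913380 to 12913907 (506283 bp) had folds from 5.01 to 7.07 in 5 libraries and no peak in 1 silique library. No H3K27me3 peak overlapped any of the 5, and of all islands only 9.54% were overlapped in any library.

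High local control touched few islands. The implied control exceeded 2 times its list's median in at least 1 library at 27 islands (3.48%), against 2.71% of other regions. The highest value, 3.33 times the list's median, was at the island on sequence 14 at 29761603 to 29762462, with folds from 5.37 to 9.51 in 6 libraries. The island on sequence 3 at 40303333 to 40304119 reached 3.31 times, with folds from 7.47 to 12.6, and the island on sequence 13 at 59230981 to 59232285 reached 3.02 times. The part of the control in these islands was not tested.

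Most islands were marked in every tissue. A peak was called in all 6 H3K4me3 libraries at 557 islands (71.8%), against 77.1% of other regions and 77% of all reproducible regions. Both seedling libraries had a peak at 710 islands (91.5%, background 93.4%), both flower bud libraries at 649 (83.6%, background 85.1%) and both silique libraries at 636 (82.0%, background 85.3%). Patterns over tissues are made of the same H3K4me3 peaks as the rule, so their counts stand beside the background without a reading.

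A restricted island had a peak in both libraries of 1 tissue and in none of the other 4. There were 59 seedling-restricted islands (7.60% of islands, with a background of 6.59% of reproducible regions), 13 flower bud-restricted ones (1.68%, background 1.2%) and 11 silique-restricted ones (1.42%, background 1.39%). Without seedling replicate 1 the count for seedling was 89. When every list was held to the same length, the counts were 33 for seedling and 22 for silique. Seedling without flower bud, meaning a peak in both libraries of the first tissue and in neither of the second, gave 80 islands (background 9.84%), and flower bud without seedling gave 30 (background 2.82%). Seedling without silique gave 92 islands (background 9.75%), and silique without seedling gave 30 (background 3.05%). Flower bud without silique gave 38 (background 3.82%), and silique without flower bud gave 32 (background 4.07%).

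Restricted islands were weakly enriched. Median folds at seedling-restricted islands were 7.58 and 7.65, against 16.4 and 17.3 in the same libraries at islands with peaks in all 6. At flower bud-restricted islands they were 5.53 and 6.19, against 16.7 and 15.6. At silique-restricted islands they were 5.70 and 6.07, against 13.6 and 16.1. They were narrower as well, with median widths of 474 bp for seedling, 617 bp for flower bud and 737 bp for silique, against 912 bp at islands with peaks in all 6. Other restricted regions were weak too, with median folds of 7.44 and 7.59 for seedling.

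A few restricted islands reached higher folds. Among seedling-restricted islands the highest lower folds were 17.6 on sequence 17 at 25956641 to 25957086, 15.0 on sequence 14 at 57442742 to 57443610 and 14.6 on sequence 12 at 62598390 to 62599271. That on sequence 14 carried an H3K27me3 peak in both flower bud libraries, with folds of 6.39 and 3.85. Its counterpart on sequence 12 carried one in 1 flower bud library, with a fold of 4.23. Among silique-restricted islands, the one on sequence 14 at 2384621 to 2386008 stood apart, with folds of 18.0 and 18.3. The next, on sequence 19 at 30578122 to 30579402, had 8.91 and 6.97, and it carried H3K27me3 in all 6 libraries with folds from 9.54 to 33.6. On sequence 18, the island at 18560696 to 18561519 had 6.75 and 8.31. Flower bud-restricted islands had lower folds of at most 8.74, the value of the island on sequence 15 described above. The next lower fold was 7.70, on sequence 17 at 26950054 to 26950481, where 1 seedling library had an H3K27me3 peak with a fold of 7.33.

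Some islands had H3K4me3 in all tissues but 1. A peak was missing from seedling alone at 14 islands (1.80%, background 1.34%), from flower bud alone at 18 (2.32%, background 2.29%) and from silique alone at 23 (2.96%, background 2.28%). On sequence 7, the island at 14737415 to 14738379 had folds of 18.7 and 20.9 in seedling, no peak in bud, and 16.5 and 16.2 in silique. On sequence 11, the island at 51595670 to 51596507 had 13.3 and 15.8 in seedling, 18.1 and 14.9 in bud, and no peak in silique. On sequence 14, the island at 29974243 to 29975267 had none in seedling, 12.03 and 9.77 in bud, and 8.94 and 10.4 in silique. These islands were ranked by fold, so their folds are examples of the strongest. The next ones of each kind had folds from 8.58 to 16.2 without seedling (sequence 6, 13554191 to 13555056), from 8.09 to 11.9 without flower bud (sequence 15, 49498399 to 49498932) and from 10.3 to 12.8 without silique (sequence 14, 40694714 to 40695248).

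H3K27me3 was not used to choose the islands, so it could be tested. The first question was whether the islands themselves were overlapped by H3K27me3 peaks. In seedling, 42 and 31 islands were overlapped (5.41% and 3.99%), against 3.71% and 3.17% of other regions. In flower bud, 59 and 64 were overlapped (7.60% and 8.25%), against 6.09% and 6.37% of other regions. In silique, 49 and 28 were overlapped (6.31% and 3.61%), against 5.09% and 2.73% of other regions. The share of islands was the higher one in each library, and both shares were lowest in the shallowest library, silique replicate 2.

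The mean share was 5.86% ± 1.88 of islands and 4.53% ± 1.54 of other regions (SD, n = 6 libraries). The difference of 1.34 ± 0.434 percentage points was higher in 6 of 6 libraries (two-sided exact permutation p = 0.03125, swapping islands and other regions within libraries, the smallest that 64 arrangements allow, adjusted p = 0.03125 over 3 tests). All 6 libraries were read at the same islands, so the p-values of the 3 tests do not measure the spread between islands. Islands were the narrower set, and with only the middle base of each region counted the difference was 1.40 points.

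That direction held against all other regions as a whole, and turned with the regions set against the islands. By the smaller gap, the mean share with H3K27me3 was 3.05% up to 5 kb, 6.52% over 5 to 10 kb, 7.72% over 10 to 20 kb, 7.25% over 20 to 40 kb and 5.86% for the islands. Other regions were mostly crowded ones, since 30283 of them had a gap of at most 5 kb. Against the 2398 regions with a smaller gap over 20 to 40 kb the share of islands was lower by a mean of -1.39 points, in 6 of 6 libraries (exact permutation p = 0.03125). Against regions with a gap over 5 to 40 kb, a comparison added after the data were seen, the difference was -1.13 points (exact permutation p = 0.03125). With a gap limit of 60 kb, the 299 islands had 4.74% and other regions 4.55%, a difference of 0.191 points (exact permutation p = 0.40625). The share thus followed an arch over the gap classes, with its top between 10 and 20 kb.

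**Figure D4:**
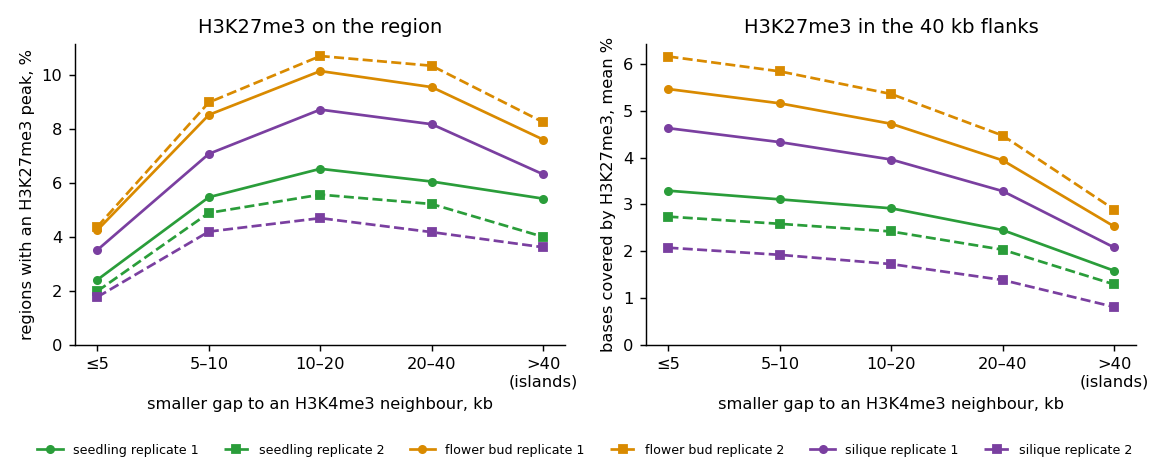
H3K27me3 at reproducible H3K4me3 regions by the smaller gap to an H3K4me3 neighbour (kb), 1 line per H3K27me3 library. Left, the percentage of regions overlapped by an H3K27me3 peak, which tops at 10 to 20 kb and averages 5.86% at islands. Right, the mean percentage of bases within 40 kb on each side covered by H3K27me3 peaks, which is lower in each wider class, down to a mean of 1.86% at islands.

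Within the islands, the share was lower in the more isolated ones. Its mean was 6.57% in the 477 islands with a smaller gap up to 60 kb, 5.38% in the 217 with a gap over 60 to 100 kb and 3.05% in the 82 with a gap over 100 kb. The ranges over the 6 libraries overlapped, at 3.98% to 9.64%, 3.69% to 6.91% and 0% to 4.88%. H3K4me3 in all 6 libraries did not follow the order of these means, at 71.1%, 74.7% and 68.3% of those islands. Nor did the folds, whose medians per library lay between 11.4 and 14.3, between 12.9 and 15.5 and between 11.2 and 13.7. These classes were set after the data were seen and are a description.

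The difference also varied between the sets of sequences. On sequences 11 to 19 the islands minus other regions gave 1.88 points, higher in 6 of 6 libraries. On sequences 1 to 10, with 133 islands, it was -0.405 points and positive in 2 of 6 libraries (exact permutation p = 0.5). There the libraries split by tissue, with 2.10 and 0.408 points in seedling, -1.89 and -1.42 in bud, and -0.876 and -0.744 in silique, on 3 to 8 overlapped islands each. The difference between the sets of sequences was 2.28 ± 1.87 points (SD, n = 6 libraries, positive in 5 of 6). It did not pass the threshold of 0.05 (exact permutation p = 0.0625, not adjusted, added after the data were seen).

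The surroundings of the islands were poor in H3K27me3. Within 40 kb on each side, H3K27me3 peaks covered 1.58% and 1.29% of the bases around islands in seedling, against 3.17% and 2.63% around other regions. In flower bud they covered 2.53% and 2.89% around islands, against 5.24% and 5.92%. In silique they covered 2.08% and 0.804% around islands, against 4.42% and 1.96%. In each library, coverage around islands was between 0.409 and 0.499 times that around other regions.

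Mean coverage was 1.86% ± 0.784 around islands and 3.89% ± 1.55 around other regions (SD, n = 6 libraries). The difference of -2.03 ± 0.773 points was lower in 6 of 6 libraries (exact permutation p = 0.03125, adjusted p = 0.03125). Against regions with a smaller gap over 20 to 40 kb it was -1.07 points (exact permutation p = 0.03125). On sequences 11 to 19 alone it was -1.35 points (exact permutation p = 0.03125). The rule removes H3K4me3 from these flanks, and with it any H3K27me3 that lies on other H3K4me3 regions. It says nothing of H3K27me3 elsewhere in the flanks. The part of the rule in the difference was not tested, and the density of genes there was not measured.

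Distances to H3K27me3 were longer from islands. The median distance from an island to the nearest H3K27me3 peak was 36.1 and 44.4 kb in seedling, against 16.6 and 18.7 kb from other regions. It was 24.7 and 24.5 kb in flower bud, against 11.7 and 11.3 kb. It was 28.4 and 66.9 kb in silique, against 13.0 and 23.9 kb. The largest distances of both sets were in silique replicate 2, the library with the fewest fragments. On a log10 scale the difference was 0.359 ± 0.0465 (SD, n = 6 libraries), higher in 6 of 6 (exact permutation p = 0.03125, adjusted p = 0.03125). With a gap limit of 20 kb it was 0.171, and with 60 kb it was 0.615. The rule also keeps H3K27me3 on other H3K4me3 regions away from islands, and its part in the distances was not tested. No H3K27me3 peak of any of the 6 libraries came within 40 kb of 270 islands (34.8%), against 11.3% of other regions and 19.6% of regions with a smaller gap over 20 to 40 kb.

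H3K27me3 coverage by distance shows where the islands and other regions part. Inside the regions, coverage was 4.51% ± 1.56 in islands and 3.10% ± 1.26 in other regions, higher in islands in 6 of 6 libraries. In the first 1 kb outside it was 2.26% and 1.80%, higher around islands in 5 of 6 libraries. From 1 to 2 kb it was 2.26% and 2.41%, higher around islands in 2 of 6. From 2 to 5 kb and beyond, coverage was lower around islands in 6 of 6 libraries. At 10 to 20 kb it was 1.64% around islands and 4.03% around other regions. At islands H3K27me3 coverage was thus highest inside the marked region. At other regions it also fell from inside to the first 1 kb, and it exceeded the inside value only from 2 kb outward (3.20% at 2 to 5 kb). Other regions were mostly crowded ones, and no such profile was made for those with a smaller gap over 20 to 40 kb.

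**Figure D5:**
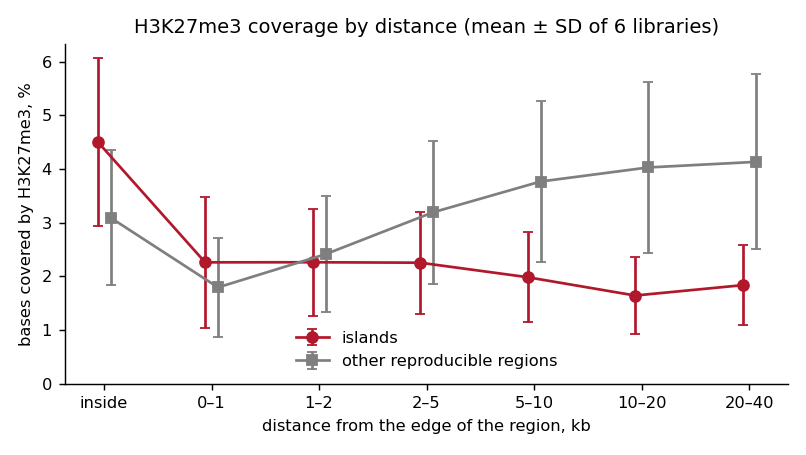
Mean percentage of bases covered by H3K27me3 peaks inside H3K4me3 regions and at increasing distance from their edges (kb), for islands (red circles) and other reproducible regions (grey squares). Points and bars are the mean and SD of 6 H3K27me3 libraries. The lines cross between 0 and 2 kb, and at 10 to 20 kb they stand at 1.64% for islands and 4.03% for other regions.

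A minority of islands carried reproducible H3K27me3. A peak in both libraries of at least 1 tissue was found at 58 islands (7.47%, with 6.12% of all reproducible regions). Of the 58, 52 lay on sequences 11 to 19, which held 82.9% of all islands. By tissue, the 58 comprised 30 islands in seedling (background 2.96%), 57 in flower bud (background 5.82%) and 28 in silique (background 2.73%). All but 1 of the 58 were therefore marked in flower bud, the tissue with the deepest H3K27me3 libraries. Of the 2951 other regions with H3K27me3, 2805 were marked in flower bud. When every list was held to the same length the 58 became 36. A peak in all 6 H3K27me3 libraries was found at 24 islands (3.09%, background 1.93%).

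H3K27me3 differed between tissues at islands at shares near those over all reproducible regions. It was in both flower bud libraries and neither seedling library at 21 islands (2.71%, background 2.32%), and the reverse at 1 (0.129%, background 0.169%). It was in both flower bud libraries and neither silique library at 13 islands (1.68%, background 1.29%), and the reverse at none (background 0.0732%). Silique without seedling gave 3 islands (0.387%, background 0.535%), and seedling without silique gave none (background 0.325%). Other regions leaned to flower bud likewise, at 1121 for flower bud without seedling against 82 for the reverse. Flower bud had the deepest H3K27me3 libraries, and the part of depth was not tested.

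Islands with H3K27me3 had lower median H3K4me3 folds than the other 718 islands. Median H3K4me3 folds were 10.9 and 11.2 in seedling with H3K27me3, against 14.0 and 14.6 without. They were 8.53 and 8.30 in flower bud, against 14.9 and 13.4, and 7.68 and 8.67 in silique, against 12.2 and 14.1. Median widths were close, at 853.5 bp with H3K27me3 and 837.5 bp without.

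H3K27me3 was more frequent at islands whose H3K4me3 varied. It was present at 22 of 83 restricted islands (26.5%), against 19 of 557 islands with H3K4me3 in all 6 libraries (3.41%). By tissue it was at 11 of 59 seedling-restricted islands (18.6%, against 23.5% of other regions restricted alike). It was at 5 of 13 flower bud-restricted islands (38.5%, against 27.2%) and at 6 of 11 silique-restricted ones (54.5%, against 31.01%). The tissues thus went different ways, on few islands each, and no test was made. Pooled over tissues, 25.1% of other restricted regions had H3K27me3, and 2.40% of other regions with H3K4me3 in all 6.

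Both marks could be called in the same tissue. Both libraries of each mark had a peak at 19 islands in seedling (background 1.82%), 33 in flower bud (background 2.81%) and 16 in silique (background 1.31%). These were 63.3%, 57.9% and 57.1% of the islands with H3K27me3 in those tissues, against 61.6%, 48.2% and 47.8% in other regions. H3K27me3 in both libraries with H3K4me3 in neither was found at 10 islands in seedling (background 0.939%), 21 in bud (background 2.66%) and 12 in silique (background 1.27%). These were 33.3%, 36.8% and 42.9% of the islands with H3K27me3 in those tissues, against 31.7%, 45.9% and 46.5% in other regions. In whole tissue, both marks on a region can come from the same or from different cells, which peak lists cannot tell apart.

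The H3K27me3 peaks at islands had wider medians than those at other regions in each of the 6 libraries. Median widths were 982 and 1006 bp at islands in seedling, against 719.5 and 691 bp at other regions. In flower bud they were 1212 and 1526 bp at islands, against 1030 and 1208 bp at other regions, and in silique 1351 and 896.5 bp, against 914.5 and 769 bp. These medians rest on 28 to 64 islands per library, and the difference was not tested. Peaks of 5 kb or wider lay on 5 of 59 and 5 of 64 overlapped islands in the flower bud libraries (8.47% and 7.81%), against 3.70% and 6.36% of other regions. In silique replicate 1 they lay on 3 of 49 islands (6.12%), against 2.92% of other regions. In the other 3 libraries they lay on none of the overlapped islands and on 0.681% to 1.24% of other regions. The share of peaks wider than the region they overlapped ran from 39.3% (silique replicate 2) to 67.7% (seedling replicate 2) at islands, against 46.3% and 41.5% at other regions in the same libraries. Median folds ran from 9.51 to 11.5 at islands and from 9.70 to 10.98 at other regions.

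Individual islands show the combinations. On sequence 17, the island at 41161609 to 41162230 had the highest H3K27me3, with folds of 33.6 and 31.2 in seedling, 41.1 and 50.1 in bud, and 34.5 and 23.5 in silique. Its H3K4me3 was weak, with 5.50 and 5.42 in seedling, no peak in bud, and 6.33 and 5.17 in silique. This island thus had H3K27me3 in every library and H3K4me3 in 4.

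On sequence 5, the island at 16985568 to 16986858 carried both marks in all 12 libraries. Its H3K4me3 folds were 16.8 and 14.2 in seedling, 15.3 and 14.1 in bud, and 20.4 and 18.8 in silique. Its H3K27me3 folds were 20.9 and 17.6 in seedling, 37.8 and 43.3 in bud, and 32.0 and 21.3 in silique. The H3K27me3 peak was 5849 and 5878 bp wide in flower bud, on an island of 1291 bp.

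Also on sequence 17, the island at 37836009 to 37836515 had H3K4me3 in flower bud alone, with folds of 6.79 and 7.84. H3K27me3 covered it in every library, with folds of 23.6 and 26.5 in seedling, 37.6 and 42.7 in bud, and 41.7 and 20.5 in silique. On sequence 15, the island at 36768186 to 36769345 had H3K27me3 folds from 16.5 to 42.7 and H3K4me3 folds from 4.05 to 8.90 in 5 libraries. On sequence 11, the island at 18675205 to 18676359 had H3K27me3 folds from 13.8 to 34.5 beside H3K4me3 folds from 4.90 to 6.95 in all 6. On sequence 19, the island at 43661655 to 43662438 had H3K27me3 folds from 9.90 to 29.2, and H3K4me3 folds of 10.9 and 9.18 in seedling, 4.29 in 1 flower bud library, and 13.1 and 14.4 in silique. Of these 6 islands, chosen by their H3K27me3 fold, 4 had no H3K4me3 peak in at least 1 library. Among all 58 islands with H3K27me3, 19 had H3K4me3 in all 6 libraries, against 557 of all 776 islands (71.8%).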

How the data were processed

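Each of the 12 deposited files is the peak list of 1 library, called on its own. The submitters' processing notes name BWA, SAMtools, GATK and MACS2. MACS 2.2.7.1 was run for narrow peaks, per the file headers, with paired ends, a q limit of 1e-05, 1 fragment per duplicate position and 1 merged control of 12042843 fragments for every list. Pileup is a signal deposited by the authors, the coverage by fragments at a summit. Both the p-value and the q-value are given as −log10, per the file headers. Fold enrichment is a ratio deposited by the authors. The genome build is not given in the sources used here. Fragments per library ran from 2654588 to 14339594.

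The members and lists were chosen with earlier results of these data known. A library had a region if a peak of it overlapped by 1 bp, with the highest fold taken. A missing neighbour at a sequence end gave no island. Implied local control was (pileup + 1) / fold − 1. Islands and the other 48406 regions were compared over the 6 H3K27me3 libraries by exact permutation within libraries (64 arrangements), with Benjamini-Hochberg adjustment over 3 tests: overlap by 1 bp, bases covered within 40 kb on each side, and median log10(distance in bp + 1). H3K4me3 values were not tested.

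Islands were named by rank: the 5 most isolated, the 5 with the highest lowest fold in 6 libraries, the 3 widest, the 3 strongest restricted to each tissue and the 2 strongest missing from each, the 6 with the highest H3K27me3, the 3 longest runs, those next to the limit, and the 3 with the highest control. Within runs, the islands given with values were picked after these were seen. Alternatives changed the gap limit, the neighbours, the −log10 q minimum, the number of peaks per list, merging, the overlap, the comparison regions, the sequences and the libraries. The calculation was tested on simulated peak lists. Python 3.11.15, numpy 2.4.6, pandas 2.3.3 and matplotlib 3.10.9 were used. No sequence is shown, because no genome of the files' build was used here.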

Additional observations from a re-analysis of the deposited data

Results flagged for a closer look

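Each H3K4me3 list held 37 to 42 peaks on sequences other than the numbered 1 to 19, above the limit of 3 that a count of 0 allows. These peaks were outside all the comparisons, and no island was sought there.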

How the results depend on the processing

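The number of islands was 3174 with a gap limit of 20 kb and 299 with 60 kb. It was 786 to 830 when an H3K4me3 library was left out, and the rule does not use the H3K27me3 libraries. The difference in H3K27me3 overlap reversed to -1.39 points against regions with a smaller gap over 20 to 40 kb, to -1.13 against those over 5 to 40 kb, and to -0.405 on sequences 1 to 10. It no longer passed at 0.191 points with a gap limit of 60 kb. With flower bud and silique libraries alone the 3 differences were 1.37 points for overlap, -2.31 points for flank coverage and 0.361 for log10 distance, and no p below 0.125 was possible. Leaving out a library gave 0.933 to 1.58 points for overlap, -2.20 to -1.83 points for flank coverage and 0.342 to 0.366 for log10 distance. Leaving out an H3K27me3 library allows no p below 0.0625, so those calls were lost by construction, and leaving out an H3K4me3 library kept all 3 calls. Flank coverage and distance kept their direction in all 25 alternatives each, and overlap in 24 of 27. Elsewhere the cause of a change was not tested. The 3 tests paired islands with other regions within each library. Libraries could not be paired with one another across marks or tissues, because the labels give no replicate numbers. Those used here only follow the order of deposit. Peak calls depend on depth, and H3K27me3 fragments ran from 2654588 to 11513204, so shares are compared within libraries.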
